A study of Mus musculus with 36 samples.

Results

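The comparison set the sorted mouse brain cells labelled population A against those labelled Neg. It used the 12 RNA-seq libraries with these labels, 6 of each, out of 36 libraries in the series. The libraries were taken by their population labels. Olfactory bulb, cortex and brainstem were each represented by 2 libraries of A and 2 of Neg. All animals were C57/Bl6 mice, and the labels call the cells astrocytes in A and in Neg alike. The labels name no genotype, treatment or age, no antigen used for sorting, and not what Neg stands for. Whether the paired libraries of a region and population are different animals is not stated, so the p-values reflect the spread among these libraries alone, and that spread may be technical.

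Astrocytes are the glial cells that clear neurotransmitters from synapses, buffer potassium and water, and supply neurons with lipids and energy substrates. They are recognised by genes for glutamate and GABA transporters, the water channel Aqp4, gap junction proteins and a few receptors. They differ between brain regions, and surface antigens have been used to sort them into subpopulations.

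The libraries of A held more detected genes than those of Neg. In A, 4281 to 9376 genes reached 1 FPKM (fragments per kilobase of transcript, scaled to mapped fragments, a level per length), with a median of 8288, against 2104 to 7465 in Neg, with a median of 5023. The difference had p = 0.0463 by an exact two-sided permutation test with labels permuted within regions, and adjusted p = 0.0521 over the 9 values tested this way, which did not pass. The FPKM of nuclear transcripts summed to between 37453 and 119524 in A and between 24130 and 63064 in Neg (exact permutation p = 0.0185, adjusted p = 0.0238). The summed FPKM of 3 mitochondrial transcripts ran the other way in the olfactory bulb and brainstem, at 4948 to 10389 in A against 10663 to 85964 in Neg. In the cortex it was 15922 and 46593 in A and 16632 and 38537 in Neg, and over the 3 regions the exact permutation p was 0.0741. Signal at the locus of Gm26917 took 2.22% to 13.6% of nuclear FPKM in A and 0.394% to 4.54% in Neg. Gm26917 is annotated as a long intergenic noncoding RNA (chromosome 17, 39843013 to 39846341, GRCm38). Which RNA gave the signal at this locus was not tested, and it is part of the nuclear sums above. The part of these library differences in the gene differences below was not tested. The counts and medians of the gene lists are given on the deposited scale and, for most lists, also after quantile normalization, which gives every library the same distribution of values. In bulk samples, fewer cells of a type and less RNA per cell cannot be told apart.

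**Figure D1:**
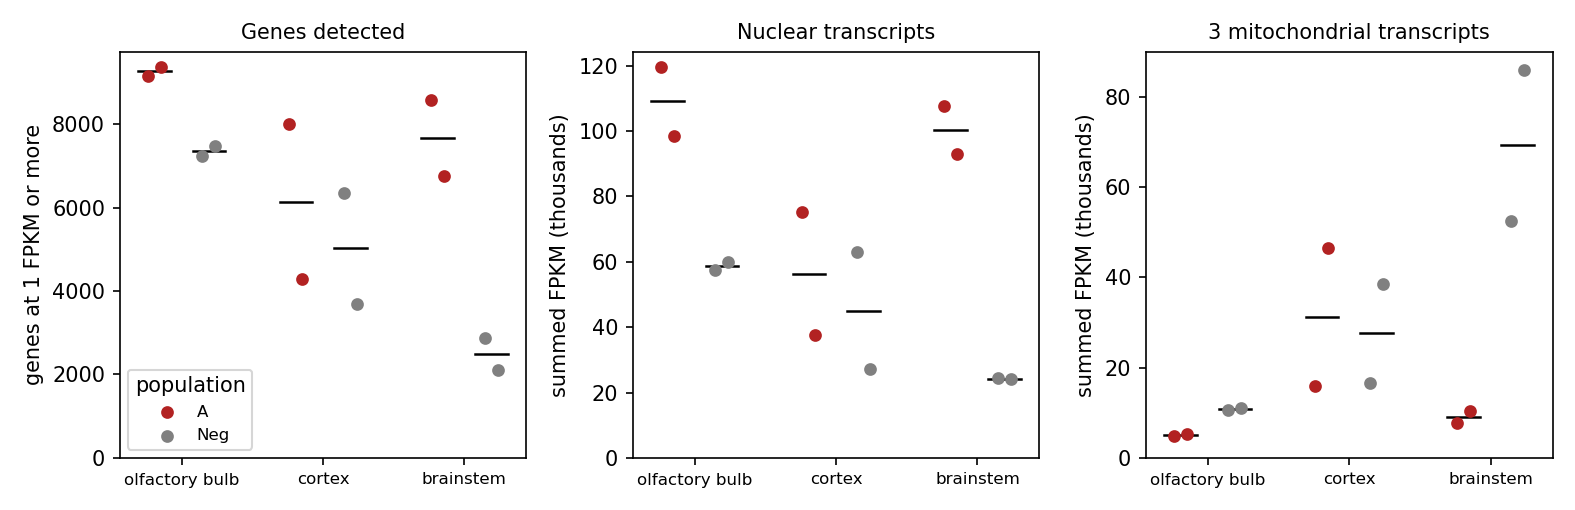
Genes at 1 FPKM or more, summed FPKM of nuclear transcripts and summed FPKM of 3 mitochondrial transcripts (sums in the units on the axes), for each library of A (red) and Neg (grey) in the 3 regions. Points are libraries and lines are means of 2; the 2 brainstem Neg libraries hold 2875 and 2104 genes, the fewest of the 12.

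Among astrocyte markers 3 genes were looked at first, and all 3 were higher in A. Gpr37l1, an orphan receptor of astrocytes (chromosome 1, 135160234 to 135167681, GRCm38, protein coding), stood at 52.3 and 37.5 FPKM in olfactory bulb A, 33.2 and 6.43 in cortex A and 98.3 and 24.6 in brainstem A. In Neg it stood at 1.98 and 5.64 in the olfactory bulb, 5.69 and 0.320 in the cortex and 0.228 and 0 in the brainstem. Every A library lay above every Neg library, and the lowest A library was the second of the cortex. The difference was 3.76 ± 0.58 (SE) on the log2(FPKM + 1) scale, with adjusted p = 0.00192 in limma. After quantile normalization it was 3.18 ± 0.48 (adjusted p = 0.0074).

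Slc1a3, the glutamate transporter GLAST (chromosome 15, 8634124 to 8710764), had 132 and 97.4 FPKM in olfactory bulb A, 119.7 and 59.2 in cortex A, and 108.0 and 49.99 in brainstem A. Its Neg values were 33.1 and 25.3 in the olfactory bulb, 31.9 and 12.9 in the cortex, and 2.29 and 2.18 in the brainstem. Again no A library fell within the Neg range, although the olfactory bulb and cortex Neg libraries kept a clear level of the transporter. The log2 difference was 2.82 ± 0.49 (adjusted p = 0.00303), and 1.83 ± 0.28 after quantile normalization (adjusted p = 0.0074). Aqp4, the water channel of astrocyte endfeet, ranged from 15.6 to 57.7 FPKM in A, with a median of 32.3, and from 2.10 to 10.1 in Neg, with a median of 5.81. The groups of Aqp4 did not overlap as deposited, and the log2 difference was 2.43 ± 0.44 (adjusted p = 0.00303). After quantile normalization the lowest A value, 16.3, lay below the highest Neg value, 18.3. The difference on that scale was 1.53 ± 0.27 (adjusted p = 0.0127). For each of the 3 genes on each scale the exact permutation test within regions gave p = 0.00926, the smallest that the arrangements allow, and 0.0139 when adjusted over the 9 such tests made.

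**Figure D2:**
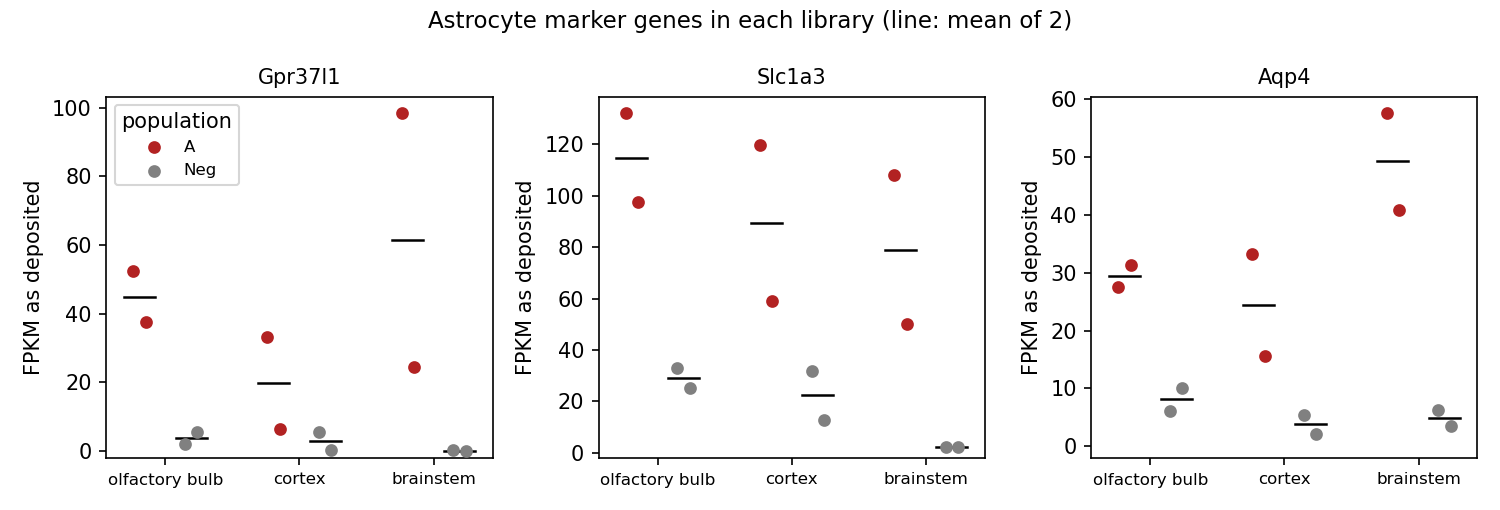
FPKM as deposited of Gpr37l1, Slc1a3 and Aqp4 in each library of A (red) and Neg (grey), by region; points are libraries and lines are means of 2. In each panel the lowest A library lies above the highest Neg library, as for Gpr37l1 at 6.43 against 5.69 FPKM.

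Among the other populations of the series, Gpr37l1 had a median of 35.3 FPKM in A (n = 6), against 130 in B, 107 in C, 33.6 in D, 4.56 in E and 1.15 in Neg. The range of A, 6.43 to 98.3, overlapped those of B, C, D and E. These medians were not tested against each other.

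The promoters of Gpr37l1 and Slc1a3 are printed because these genes were among the markers looked at first. With them stand the promoters of Aldoc, Apoe and S100b, the 3 astrocyte markers higher in A whose window holds TTGGCA, a core of the motif bound by NFI factors, which act in astrocyte development. Each window runs from 250 bases before to 50 bases after the annotated start (RefSeq, GRCm38.p6), 5′ to 3′ on the gene's strand, with TTGGCA in capitals. They lie at chr1:135167632-135167931 (Gpr37l1, minus strand), chr15:8710758-8711057 (Slc1a3, minus), chr11:78322823-78323122 (Aldoc, plus), chr7:19698349-19698648 (Apoe, minus) and chr10:76253586-76253885 (S100b, plus).
Gpr37l1: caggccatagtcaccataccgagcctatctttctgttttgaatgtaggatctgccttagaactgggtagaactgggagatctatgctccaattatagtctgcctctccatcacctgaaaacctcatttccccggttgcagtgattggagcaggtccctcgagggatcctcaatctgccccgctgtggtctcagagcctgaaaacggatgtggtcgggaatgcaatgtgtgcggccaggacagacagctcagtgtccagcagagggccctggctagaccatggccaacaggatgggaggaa
Slc1a3: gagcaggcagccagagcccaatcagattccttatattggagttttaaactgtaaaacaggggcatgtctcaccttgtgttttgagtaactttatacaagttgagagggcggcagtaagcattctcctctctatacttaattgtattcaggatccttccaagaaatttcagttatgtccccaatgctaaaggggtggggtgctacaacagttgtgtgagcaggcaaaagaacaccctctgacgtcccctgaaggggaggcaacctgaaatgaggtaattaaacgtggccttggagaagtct
Aldoc: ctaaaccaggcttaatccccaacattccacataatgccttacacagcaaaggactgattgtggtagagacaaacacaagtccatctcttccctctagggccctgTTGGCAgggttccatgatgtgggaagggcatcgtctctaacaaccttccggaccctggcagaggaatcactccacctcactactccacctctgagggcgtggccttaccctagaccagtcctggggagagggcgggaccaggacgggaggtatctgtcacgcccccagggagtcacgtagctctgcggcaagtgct
Apoe: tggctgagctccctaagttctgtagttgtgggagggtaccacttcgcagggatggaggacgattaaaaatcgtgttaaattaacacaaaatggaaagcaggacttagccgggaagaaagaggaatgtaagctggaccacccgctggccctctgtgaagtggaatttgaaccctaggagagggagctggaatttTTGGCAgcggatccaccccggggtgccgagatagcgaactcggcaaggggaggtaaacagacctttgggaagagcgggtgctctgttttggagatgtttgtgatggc
S100b: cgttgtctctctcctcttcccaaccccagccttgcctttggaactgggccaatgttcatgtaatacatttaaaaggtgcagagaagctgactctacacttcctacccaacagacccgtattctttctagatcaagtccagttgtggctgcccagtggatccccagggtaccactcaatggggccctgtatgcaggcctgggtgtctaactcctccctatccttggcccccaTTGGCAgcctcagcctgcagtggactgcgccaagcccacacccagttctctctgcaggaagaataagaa

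Searched on both strands, TTGGCA was in 3 of the 29 windows that the table holds for 21 of the 26 astrocyte markers higher in A, which is 10.3%. It was in 11.2% of the windows of all genes tested and in 14.1% of all windows of the table. ACAATG, a core of the motif bound by SOX factors, was in 3.45% of the windows of these markers, against 7.39% for all genes tested. It was in 12.6% of all windows of the table. The genes called higher on both scales held TTGGCA in 12.7% of windows and ACAATG in 8.86%. The genes called lower after quantile normalization held TTGGCA in 11 of 45 windows, 24.4%, and ACAATG in 6, 13.3%, the highest shares of these sets. These windows cover 30 of the 46 genes, and the matches lie in 9 genes for TTGGCA and 6 for ACAATG. The shares were not tested against each other. A match is a description of letters, and no match says only that these letters are not in the window.

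Across all genes, A was higher far more often than lower as the values were deposited. Of 10739 genes tested, 1433 (13.3%) were higher in A and 1 (0.00931%) was lower at a Benjamini-Hochberg adjusted p under 0.05 in limma, the rule for a call throughout. The median of all genes was itself higher in A by 0.61 on the log2 scale. After quantile normalization this median was 0.08, and 206 genes (1.92%) were called, of which 160 (1.49%) were higher and 46 (0.428%) lower. All 160 were among the 1433. At an unadjusted p under 0.05 in limma, 3828 of the 10739 genes passed as deposited and 1799 after quantile normalization, in either direction. When the nuclear FPKM of each library was rescaled to the median sum, 149 genes (1.39%) were called, 118 (1.1%) higher and 31 (0.289%) lower, and 112 genes were higher on all 3 scales. In 207 genes (1.93%) every A library lay above every Neg library as deposited, and in 0 every A library lay below. With olfactory bulb and cortex libraries alone, 2 genes were called. Without the 4 libraries under 5000 genes, of which 3 were Neg, 151 were called. Single libraries also moved the count of 1434. It was 529 without the first and 1106 without the second brainstem A library, 603 and 571 without those of brainstem Neg, and 591 and 3668 without those of cortex A. It was 2799 and 717 without those of cortex Neg, 770 and 971 without those of olfactory bulb A, and 845 and 855 without those of olfactory bulb Neg. The quantile count of 206 was 36 without the first brainstem A library and 300 without the second cortex A library. Of 75 named genes called as deposited, 44 kept their call without any 1 of the 12 libraries, and none changed sign.

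Astrocyte markers were higher in A as a group. Of 27 such genes, all tested, 26 were higher (background 13.3%) and 0 lower, with a median log2 difference of 2.39 beside 0.61 for all genes. After quantile normalization 16 were higher (background 1.49%), with a median of 1.53 beside 0.08, and all 27 differences were positive. In 13 of the 27 every A library lay above every Neg library as deposited (background 1.93%). The summed FPKM of the list was 1251 to 4631 in A, with a median of 3166, and 252 to 1193 in Neg, with a median of 625. Mt3, a metallothionein, was the marker not called, at 1.21 FPKM in A and 0.472 in Neg on average. Aldh1l1, the folate enzyme used as a pan-astrocyte marker, ranged from 1.55 to 14.3 FPKM in A, with a median of 6.02, and from 0 to 2.00 in Neg, with a median of 0.651. Only the second cortex A library lay within the Neg range of Aldh1l1, whose log2 difference was 1.95 ± 0.43 (adjusted p = 0.00868). Without the 4 libraries under 5000 genes, 15 of the 27 markers were called higher, with a median of 1.87. With olfactory bulb and cortex alone the median was also 1.87, and 0 were called in limma, with 24 higher and 0 lower at an unadjusted p under 0.05.

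Genes of transmitter uptake and metabolism were higher in 11 of 12, with a median log2 difference of 2.00, and in 4 after quantile normalization. For this list and those that follow, the background is 13.3% of all genes higher as deposited, with a median of 0.61. After quantile normalization the background is 1.49% higher. Several lists share members with the astrocyte markers and with each other, so their counts are not independent results. Shared with the astrocyte markers are most of the water, ion and junction proteins, and genes such as Slc1a3, Gpr37l1, Apoe and Aldoc. Plasma membrane transporters were among the genes of transmitter uptake and metabolism called higher. Slc6a11, the GABA transporter GAT-3, had 12.5 to 268 FPKM in A, with a median of 140, and 0.914 to 40.3 in Neg, with a median of 9.12. The groups overlapped through the 2 olfactory bulb Neg libraries and the second cortex A library, and the log2 difference was 3.43 ± 0.59 (adjusted p = 0.00303). Slc6a9, the glycine transporter GlyT1, had medians of 21.1 and 0.438 FPKM in A and Neg and differed by 2.68 ± 0.55 (adjusted p = 0.00599).

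Water, ion and junction proteins were higher in 12 of 13 (median 2.36), and in 6 after quantile normalization. Fxyd1, phospholemman, which regulates the sodium pump, stood at 195 and 62.3 FPKM in olfactory bulb A, 47.3 and 13.2 in cortex A and 170 and 53.3 in brainstem A. In Neg it stood at 42.4 and 0.955 in the olfactory bulb, 50.2 and 1.13 in the cortex and 0 in both brainstem libraries. Single Neg libraries of the olfactory bulb and cortex were thus as high as some A libraries. The log2 difference of Fxyd1 was 3.84 ± 0.85 (adjusted p = 0.00882), and 3.30 ± 0.86 after quantile normalization, which did not pass the threshold (adjusted p = 0.061). Ttyh1, a chloride channel protein, ranged from 59.5 to 155 FPKM in A and from 2.78 to 33.4 in Neg without overlap (2.97 ± 0.47, adjusted p = 0.00192). Cldn10, a claudin, ranged from 11.6 to 31.4 FPKM in A and from 0 to 7.49 in Neg, also without overlap (2.69 ± 0.49, adjusted p = 0.00303). Hepacam, the adhesion protein GlialCAM, had medians of 31.2 FPKM in A and 5.05 in Neg (2.44 ± 0.57, adjusted p = 0.0116), and did not pass after quantile normalization (adjusted p = 0.109).

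Receptors of astrocytes were higher in 7 of 11 tested (median 1.36), and in 2 after quantile normalization, Gpr37l1 and Ntsr2. Ntsr2, a neurotensin receptor, had 19.9 to 236 FPKM in A, with a median of 142, and 0.282 to 42.4 in Neg, with a median of 13.4. Only the second cortex A library fell within the Neg range, and the log2 difference was 3.39 ± 0.64 (adjusted p = 0.00368). Fgfr3, a receptor of fibroblast growth factors, ranged from 2.56 to 19.8 FPKM in A and from 0.612 to 2.31 in Neg without overlap (1.97 ± 0.43, adjusted p = 0.00854). Ednrb, an endothelin receptor, had medians of 27.6 FPKM in A and 5.56 in Neg (2.06 ± 0.55, adjusted p = 0.019). Fgfr3 kept its call without any 1 library, and Ednrb lost it without 4 of the 12. Neither Fgfr3 nor Ednrb passed after quantile normalization (adjusted p = 0.0765 and 0.112), and the groups of Fgfr3 overlapped on that scale.

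Lipid transport genes were higher in 7 of 10 (median 1.85), and in 3 after quantile normalization. Apoe, the lipid carrier that astrocytes secrete, had 1140 and 861 FPKM in olfactory bulb A, 352 and 63.4 in cortex A and 513 and 191 in brainstem A. In Neg it had 125 and 129 in the olfactory bulb, 94.3 and 13.8 in the cortex and 10.3 and 8.01 in the brainstem. Within each region both A libraries lay above both Neg libraries except in the cortex, and the log2 difference of Apoe was 3.31 ± 0.54 (adjusted p = 0.00227). Clu, the apolipoprotein clusterin, ranged from 65.3 to 236 FPKM in A and from 1.97 to 46.6 in Neg without overlap (3.18 ± 0.56, adjusted p = 0.00303). Lcat, the enzyme that esterifies cholesterol on lipoproteins, was outside that list and among the largest differences. It stood at 70.7, 72.6, 52.6, 5.43, 43.4 and 35.6 FPKM in the A libraries of the olfactory bulb, cortex and brainstem in turn, and at 8.69, 7.32, 3.84, 0.0823, 0.336 and 0.343 in those of Neg. Lcat differed by 3.65 ± 0.54 (adjusted p = 0.00169), and by 2.79 ± 0.38 after quantile normalization (adjusted p = 0.00664).

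Cholesterol synthesis genes were higher in 9 of 17 (median 1.49), and in 2 after quantile normalization, Insig1 and Fdft1. Insig1, which holds back the activation of sterol regulatory factors, ranged from 2.83 to 14.3 FPKM in A and from 0.0415 to 2.50 in Neg without overlap (2.44 ± 0.43, adjusted p = 0.00303). Fdft1, squalene synthase, ranged from 2.08 to 8.54 FPKM in A and from 0 to 1.77 in Neg, also without overlap (2.18 ± 0.38, adjusted p = 0.00303). The groups of Fdft1 overlapped after quantile normalization. Sqle, squalene epoxidase, had medians of 12.9 FPKM in A and 1.17 in Neg (2.35 ± 0.54, adjusted p = 0.0103), and did not pass after quantile normalization (adjusted p = 0.0816). Srebf2, the sterol regulatory transcription factor, had medians of 7.83 FPKM in A and 1.40 in Neg (1.59 ± 0.49, adjusted p = 0.0375), a call lost without 10 of the 12 libraries. As deposited, Insig1, Fdft1 and Sqle kept theirs without any 1 library.

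Transcriptional regulators were higher as deposited, but no member of their lists passed after quantile normalization. Gliogenic transcription factors were higher in 6 of 10 (median 1.64), among them Sox2 (1.83 ± 0.46, adjusted p = 0.0161) and Zbtb20 (1.78 ± 0.49, adjusted p = 0.0224). Sox2, a factor of neural stem cells and glia, ranged from 2.40 to 12.4 FPKM in A and from 0 to 4.06 in Neg. Its call was lost without 3 of the 12 libraries, and that of Zbtb20, a zinc finger repressor, without 5. Of 9 tested Notch and BMP target genes, 7 were higher (median 1.54). Id3, an inhibitor of basic helix-loop-helix factors, had medians of 9.62 FPKM in A and 1.14 in Neg (2.00 ± 0.47, adjusted p = 0.0115). Hes5, a repressor induced by Notch, had medians of 3.52 FPKM in A and 0 in Neg (1.61 ± 0.41, adjusted p = 0.017), and lost its call without 2 of the 12 libraries, while Id3 kept its own throughout. After quantile normalization 5 gliogenic factors and 4 Notch and BMP targets were higher at an unadjusted p under 0.05 in limma, and 0 were lower.

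Secreted and matrix proteins acting on synapses were higher in 6 of 10 tested (median 1.71), and in 2 after quantile normalization, Bcan and Sparcl1. Sparcl1, the synapse-promoting protein hevin, ranged from 185 to 609 FPKM in A and from 36.02 to 137 in Neg without overlap (2.19 ± 0.41, adjusted p = 0.00344). Bcan, the proteoglycan brevican of the perineuronal matrix, had medians of 35.3 FPKM in A and 3.00 in Neg (2.73 ± 0.49, adjusted p = 0.00303). Gpc5, a glypican, ranged from 7.76 to 20.1 FPKM in A and from 0.864 to 4.55 in Neg without overlap (1.84 ± 0.42, adjusted p = 0.0101). On the quantile scale the groups of Gpc5 overlapped. Of 8 phagocytic receptors 2 were higher, beside 13.3% of all genes, and the list had a median of 1.06 beside 0.61. The 2 were Lrp1 (1.88 ± 0.52, adjusted p = 0.0241) and Axl (1.60 ± 0.44, adjusted p = 0.0232). They lost these calls without 5 and 3 of the 12 libraries. After quantile normalization 0 passed, and 2 were higher at an unadjusted p under 0.05 in limma.

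Genes of energy metabolism were called in part. Glucose and glycogen metabolism had 6 of 14 higher (median 1.12), and 2 after quantile normalization, Aldoc and Ldha. Aldoc, the brain isoform of aldolase, ranged from 47.6 to 320 FPKM in A and from 10.2 to 35.2 in Neg without overlap (2.89 ± 0.47, adjusted p = 0.00199). Ldha, a lactate dehydrogenase subunit, ranged from 3.99 to 25.6 FPKM in A and from 0 to 4.15 in Neg, and the second brainstem A library was the single one in the Neg range (2.76 ± 0.47, adjusted p = 0.00297). Nuclear genes of the respiratory chain were higher in 7 of 16 (median 1.62), and in 1 after quantile normalization, Ndufb8, a complex I subunit (1.61 ± 0.39 on that scale, adjusted p = 0.0416). Cytosolic ribosomal proteins were higher in 6 of 19 tested, beside 13.3% of all genes (median 0.96 beside 0.61). After quantile normalization 0 of these were called, with 2 higher and 1 lower at an unadjusted p under 0.05 in limma. Immediate early genes were higher in 2 of 16 (median 0.82), Nr4a1 and Jund, calls lost without 7 and 10 of the 12 libraries and a share close to the background of 13.3%.

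**Figure D3:**
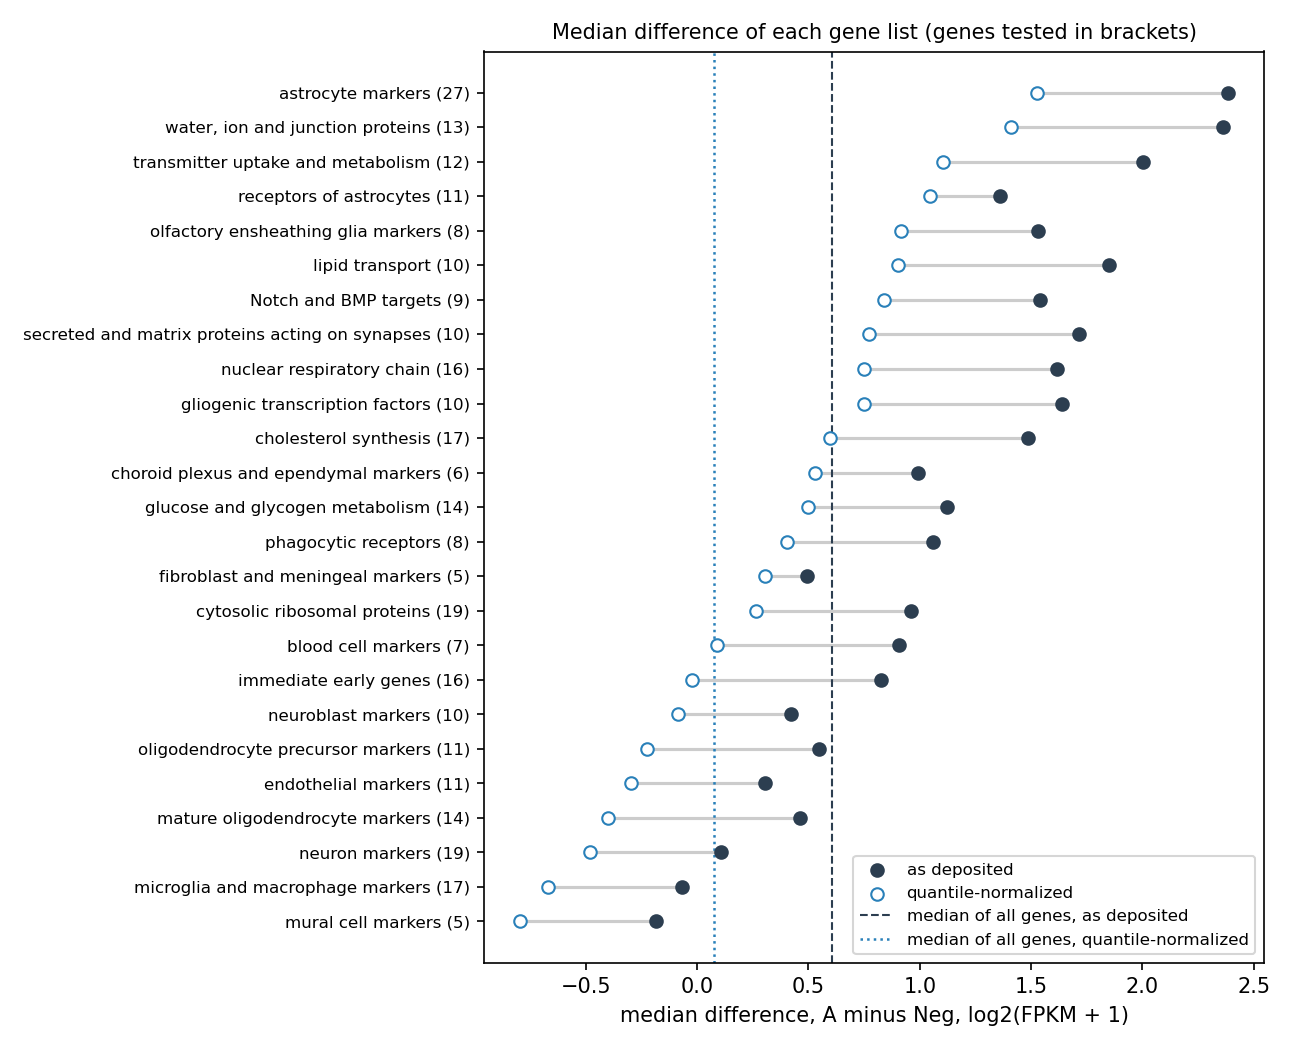
Median difference between A and Neg on the log2(FPKM + 1) scale for each gene list except the sorting antigens, as deposited (filled) and after quantile normalization (open). Vertical lines mark the medians of all genes, 0.61 and 0.08; astrocyte markers lie at 2.39 and 1.53, and neuron and microglia markers lie below the all-gene median on both scales.

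Among protein coding genes called on the deposited scale, the largest differences that had the same sign in all 3 regions and at least 5 FPKM on average in the higher group belonged to 12 genes. Besides Gpr37l1, Slc6a11, Fxyd1, Lcat, Ntsr2 and Apoe, they were Ttr, Fabp7, Npy, Cmtm5, Ddt and Rpl29. Ttr, the thyroid hormone carrier made by choroid plexus, stood at 4.70 and 268 FPKM in olfactory bulb A, 709 and 211 in cortex A and 3025 and 571 in brainstem A. In Neg it stood at 0.306 and 0.288, 364 and 74.3, and 7.48 and 16.7 FPKM in the same regions. The groups overlapped widely, and the paired libraries of olfactory bulb A stood far apart. The log2 difference of Ttr was 4.30 ± 0.84 (adjusted p = 0.00451), and 3.36 ± 0.81 after quantile normalization (adjusted p = 0.043).

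Fabp7, the brain fatty acid binding protein of glial precursors and olfactory ensheathing glia, had 3442 and 1232 FPKM in olfactory bulb A, 70.7 and 55.8 in cortex A and 230 and 145 in brainstem A. Its Neg values were 587 and 612 in the olfactory bulb, 9.65 and 11.7 in the cortex and 0.217 and 0.162 in the brainstem. Within each region both A libraries lay above both Neg libraries, while the level of olfactory bulb Neg exceeded that of A elsewhere. Fabp7 differed by 3.83 ± 0.64 over the regions (adjusted p = 0.00249), and by 2.83 ± 0.54 after quantile normalization (adjusted p = 0.0179). Npy, a neuropeptide that ensheathing glia and interneurons make, was at 396 and 375 FPKM in olfactory bulb A, 3.94 and 3.46 in cortex A and 46.3 and 25.6 in brainstem A. In Neg it was at 60.3 and 52.5 in the olfactory bulb and 0.673 or 0 in the cortex and brainstem. The log2 difference of Npy was 3.25 ± 0.50 (adjusted p = 0.00186), and 2.95 ± 0.41 after quantile normalization (adjusted p = 0.00664).

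Cmtm5, a MARVEL-domain membrane protein, had medians of 51.4 FPKM in A and 2.47 in Neg and differed by 3.38 ± 0.62 (adjusted p = 0.00344). Ddt, D-dopachrome tautomerase, was listed at 0 in 1 A library and 3 Neg libraries and had medians of 25.0 and 0.095 FPKM in A and Neg (3.28 ± 0.64, adjusted p = 0.0044). Rpl29, a ribosomal protein gene, was at 25.2 to 49.9 FPKM in A, and at 19.8 and 69.0 in olfactory bulb Neg and 0 in the other 4 Neg libraries. The difference of Rpl29, 3.41 ± 0.65 (adjusted p = 0.00401), is given as listed. Whether values of exactly 0 beside expressed libraries, here and in other genes, are sound estimates was not tested. Emc4, a subunit of the membrane protein insertase of the endoplasmic reticulum, ranged from 8.71 to 35.0 FPKM in A and from 0 to 9.14 in Neg, with 0 listed in 4 Neg libraries. It was named after quantile normalization, where it differed by 2.78 ± 0.51 (adjusted p = 0.0142).

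Markers of other cell types were measured beside these. Choroid plexus and ependymal markers were called higher in 2 of 6 tested, Ttr and Clic6 (background 13.3%), with a median of 0.99 beside 0.61. After quantile normalization 1 of the 6 was called higher (background 1.49%). The list summed to 15.8 to 3050 FPKM in A and 0.306 to 376 in Neg. Olfactory ensheathing glia markers were higher in 5 of 8 (background 13.3%), among them Fabp7, Npy, Sox10 and Aldh1a1, with a median of 1.53. They summed to 215 to 4243 FPKM in A and 189 to 853 in Neg. Oligodendrocyte precursor markers were higher in 2 of 11 tested, Olig2 and Sox10, a share near the background of 13.3%, and their median was 0.55 beside 0.61 for all genes. Olig2, a transcription factor of the oligodendrocyte lineage that some astrocytes also express, ranged from 5.55 to 10.99 FPKM in A and from 0.198 to 4.31 in Neg without overlap (2.17 ± 0.41, adjusted p = 0.00368). It also passed after quantile normalization (adjusted p = 0.0487). Of mature oligodendrocyte markers 1 of 14 was higher, a share below the background of 13.3%. It was Cnp, an enzyme of myelin (1.88 ± 0.55, adjusted p = 0.0304, lost without 7 of the 12 libraries). The list had a median of 0.46, with 3 of 14 differences positive after quantile normalization, and summed to 1498 to 13950 FPKM in A and 2003 to 7311 in Neg. The part of these cell types in the results was not tested.

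No neuron or microglia marker was called as deposited, and both lists had medians below that of all genes. Of 19 neuron markers tested 0 were called in limma, with 1 higher and 0 lower at an unadjusted p under 0.05 and a median of 0.11 beside 0.61 for all genes. They summed to 181 to 744 FPKM in A and 151 to 953 in Neg. Of 17 microglia and macrophage markers tested 0 were called, with 2 higher and 0 lower at an unadjusted p under 0.05 and a median of -0.07. They summed to 112 to 343 FPKM in A and 52.4 to 327 in Neg. The members with the largest absolute differences as deposited were Csf1r and Tyrobp, while 4 of the 17 differences were positive after quantile normalization. Csf1r and Tyrobp, a growth factor receptor and a signalling adaptor of microglia, had medians of 13.6 and 20.1 FPKM in A against 8.17 and 8.99 in Neg, and their ranges overlapped. Endothelial markers had 1 of 11 higher, Cldn5, and fibroblast markers 1 of 5, Col1a2, calls lost without 8 and 10 of the 12 libraries. Neuroblast markers had 1 of 10 higher, Tubb2b. The medians of these lists, 0.30, 0.49 and 0.42, lay below that of all genes, and a single call in lists this short is near the background of 13.3%. Of 5 mural cell and 7 blood cell markers 0 were called in limma, with 2 and 1 higher at an unadjusted p under 0.05.

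After quantile normalization some genes of neurons, oligodendrocytes and microglia were lower in A. Of the neuron markers 4 were lower (background 0.428%), with a median of -0.48 beside 0.08 for all genes. Of the microglia markers 3 were lower, with a median of -0.67, and of the mature oligodendrocyte markers 2, with a median of -0.40. None of the 46 genes lower after quantile normalization was called on the deposited scale, where all 8 named below also differed in the negative direction.

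Among the 8 largest lower differences on the quantile scale were genes of synapses and signalling. Rapgef4, a cAMP-activated exchange factor, stood at 10.6 and 8.30 in olfactory bulb A, 112 and 192 in cortex A and 19.4 and 42.8 in brainstem A, in quantile-normalized FPKM. In Neg it stood at 42.3 and 58.4 in the olfactory bulb, 288 and 496.5 in the cortex and 94.8 in both brainstem libraries. Within each region both A libraries were lower on this scale, though not in the brainstem as deposited. The log2 difference of Rapgef4 was -1.78 ± 0.29 (adjusted p = 0.00898), against -0.78 ± 0.41 as deposited (adjusted p = 0.175). Camk2a, a kinase subunit abundant at excitatory synapses, had 65.5 and 58.9 in olfactory bulb A, 257 and 218 in cortex A and 5.55 and 6.10 in brainstem A. In Neg it had 169 and 192, 334 and 410.5, and 51.9 and 44.2 in the same regions. Camk2a differed by -1.67 ± 0.31 on this scale (adjusted p = 0.0156), and by -0.62 ± 0.38 as deposited (adjusted p = 0.239).

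Ermn, the cytoskeletal protein ermin of myelinating oligodendrocytes, ranged from 1.58 to 28.3 quantile-normalized FPKM in A and from 8.36 to 102 in Neg, a log2 difference of -1.76 ± 0.28 (adjusted p = 0.00816). Ctss, the lysosomal protease cathepsin S of microglia, ranged from 5.75 to 40.35 in A and from 40.55 to 77.5 in Neg, without overlap on this scale (-1.98 ± 0.41, adjusted p = 0.0254). Fyb, an adaptor protein of immune cells, had the largest lower difference, -2.16 ± 0.46 (adjusted p = 0.0297), with medians of 1.13 in A and 7.69 in Neg. Rasgrp3, an activator of Ras, Ppfia2, a presynaptic scaffold, and Sh3gl3, an endophilin, completed the 8, with differences of -1.66, -1.73 and -1.71 and adjusted p of 0.0156, 0.0251 and 0.0335.

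**Figure D4:**
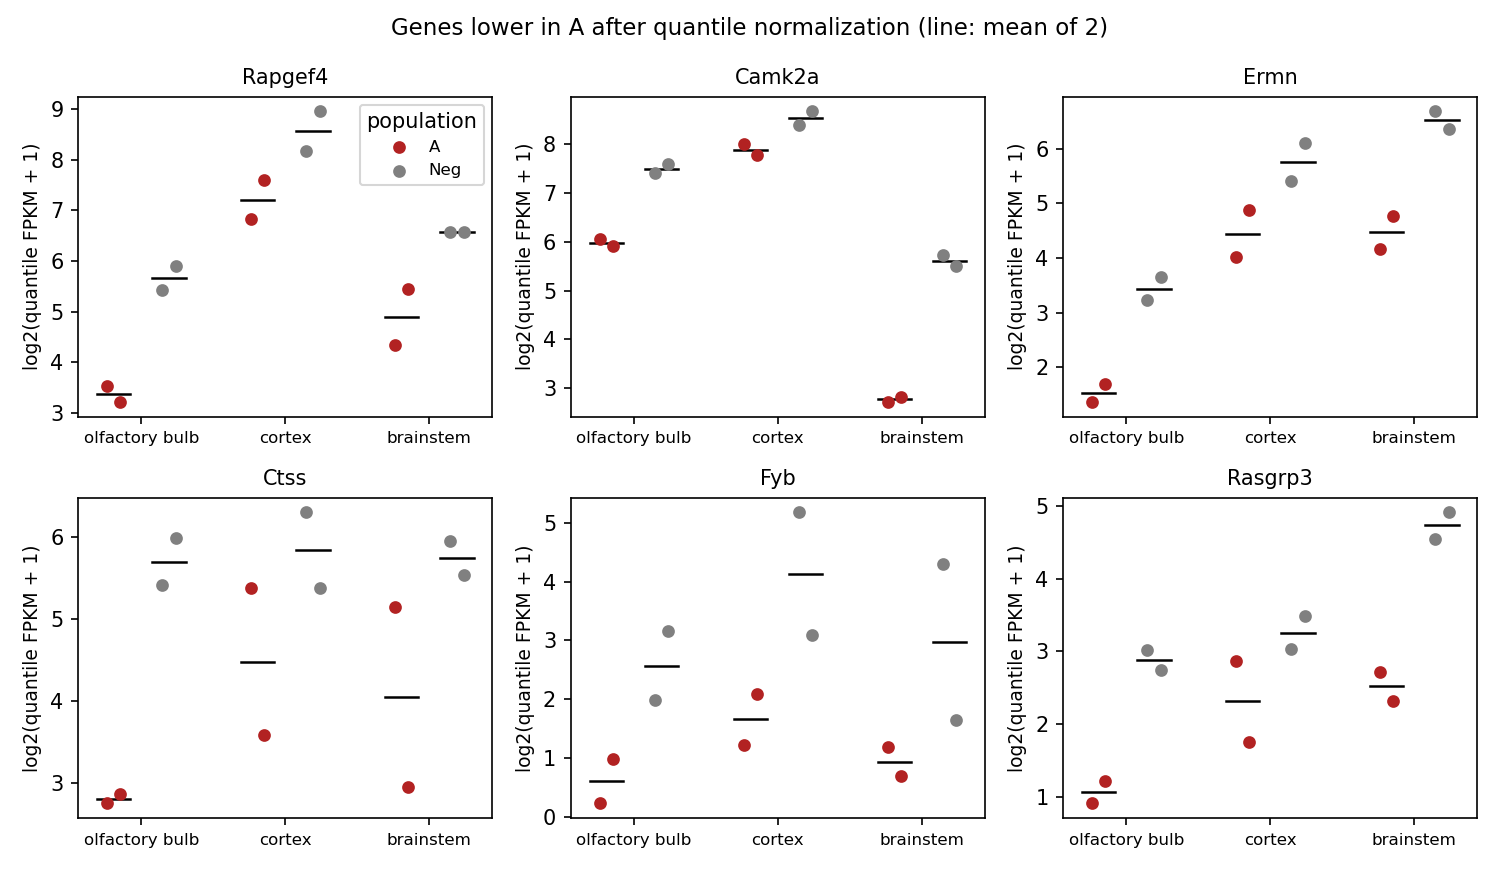
Quantile-normalized values, as log2(FPKM + 1), of 6 of the 8 genes with the largest lower differences, in each library of A (red) and Neg (grey) by region; points are libraries and lines are means of 2. The A means lie below the Neg means in all 3 regions for each gene, as the choice of these genes required, and the axes do not start at 0.

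The length of transcripts moved with these lists. Genes higher after quantile normalization had a median transcript length of 1773 bases and genes lower had 4404, beside 2733 for all genes tested. With genes split by length into 4 bins of near equal size, from the shortest to the longest transcripts, the median quantile-normalized difference was 0.27, 0.14, 0.04 and -0.10. Across genes, which share libraries and are not independent, Spearman's rho between length and the quantile-normalized difference was -0.26, and -0.15 with the difference as deposited. The part of length in the lists was not tested.

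The difference between A and Neg varied by region in the number of calls. In the brainstem 2446 genes (22.8%) were called, 2440 (22.7%) higher and 6 (0.0559%) lower. In the olfactory bulb 16 (0.149%) were higher and 0 lower, and in the cortex 3 (0.0279%) were called, 2 (0.0186%) higher and 1 (0.00931%) lower. The all-gene medians were 1.11 in the brainstem, 0.48 in the olfactory bulb and 0.21 in the cortex. After quantile normalization 156 genes (1.45%) were called in the brainstem, 123 (1.15%) higher and 33 (0.307%) lower. On that scale 0 were called in the olfactory bulb and 2 (0.0186%) in the cortex in limma, and 825 and 694 genes had an unadjusted p under 0.05 in those regions. The brainstem count was 70 without the second brainstem Neg library, 634 without the first A library, 920 without the second and 928 without the first Neg library. The olfactory bulb count was 0 without either Neg library, 5 without the first A library and 15 without the second, and the cortex count was 0 or 1 without any 1 of its libraries. A limma F test of the difference between regions called 0 genes on either scale, with 1227 at an unadjusted p under 0.05 as deposited and 783 after quantile normalization.

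Astrocyte markers lay in the same direction in each region, with median differences of 1.90 in the olfactory bulb, 1.74 in the cortex and 3.59 in the brainstem, where 26 of 27 were called (background 22.7%). After quantile normalization the medians were 1.26, 1.43 and 2.13 in the same regions, beside -0.005, 0.00 and 0.26 for all genes. The regional differences of single genes below are on the deposited scale. In the olfactory bulb and cortex 0 of 27 were called in limma, with 18 and 16 higher at an unadjusted p under 0.05. Of all 10739 genes, 1545 and 540 had such a p in those regions, in either direction. Among called protein coding genes Fabp7 had the largest brainstem difference, 7.27 (adjusted p = 1.56e-05), against 1.78 in the olfactory bulb and 2.45 in the cortex, and its test between regions had adjusted p = 0.0864. The brainstem values of Ttr (6.75), Fxyd1 (6.59), Chchd10 (5.63) and Ntsr2 (5.61) completed the 5 largest there among such genes. After quantile normalization the brainstem differences of Fabp7, Fxyd1 and Chchd10 passed (adjusted p = 0.000447, 0.0478 and 0.0149), and those of Ttr and Ntsr2 did not (adjusted p = 0.0998 and 0.0623). Chchd10, a mitochondrial protein, had 84.9 and 35.8 FPKM in brainstem A and 0.292 and 0 in brainstem Neg. Dao, D-amino acid oxidase, which degrades D-serine in hindbrain astrocytes, had 22.1 and 21.1 FPKM in brainstem A, 0.874 and 0 in brainstem Neg, and at most 0.515 in the A libraries of the other regions. Its brainstem difference was 4.04 (adjusted p = 0.00116) and its test between regions had adjusted p = 0.0894. Ndufc2, a subunit of respiratory complex I, differed by 5.46 in the brainstem (adjusted p = 0.000298), 0.51 in the olfactory bulb and 1.38 in the cortex.

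In the olfactory bulb the 5 largest differences among called protein coding genes belonged to Mdk, Tmem223, Fxyd6, Ifi27l2a and Mrpl54. Mdk, the growth factor midkine, had 41.5 and 35.9 FPKM in olfactory bulb A and was listed at 0 in both olfactory bulb Neg libraries. Fxyd6, a regulator of the sodium pump, had 33.0 and 33.2 FPKM in olfactory bulb A and 2.15 and 1.09 in olfactory bulb Neg, a log2 difference of 3.73 (adjusted p = 0.0262). In the cortex the called genes were Rpl29 and Cox6a2, which were higher, and Cmc1, which was lower, and each rested on a group listed at or near 0.

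**Figure D5:**
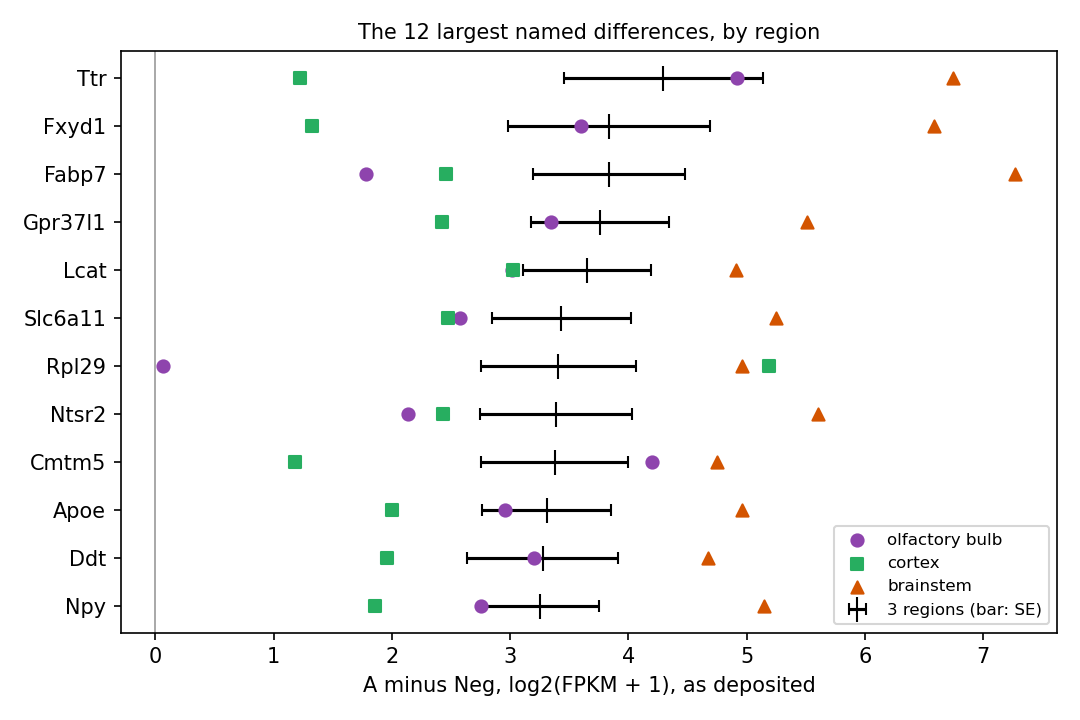
Difference between A and Neg on the log2(FPKM + 1) scale, as deposited, for the 12 protein coding genes with the largest differences by the naming rule, in the olfactory bulb (circles), cortex (squares) and brainstem (triangles). Vertical ticks with bars give the difference over the 3 regions and its SE; the brainstem value is the largest of the 3 for every gene except Rpl29.

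Itgav, Cd63 and Tfrc encode CD51, CD63 and CD71, surface antigens that have been used to subdivide mouse astrocytes; the labels do not say whether they were used here. None of the 3 was called in limma, while 2 were higher at an unadjusted p under 0.05. Itgav, an integrin subunit, ranged from 3.90 to 9.98 FPKM in A and from 0.607 to 6.89 in Neg, a log2 difference of 1.13 ± 0.42 (adjusted p = 0.07). Cd63, a tetraspanin, ranged from 1.38 to 12.7 FPKM in A and from 0.196 to 4.03 in Neg (1.05 ± 0.44, adjusted p = 0.1). Tfrc, the transferrin receptor, ranged from 1.00 to 6.22 FPKM in A and from 0.810 to 7.49 in Neg (-0.29 ± 0.47, adjusted p = 0.646).

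Sex-linked genes, looked at after their values were seen, differed between libraries. Xist, the RNA of the inactive X chromosome, was at 25.1 and 14.1 FPKM in olfactory bulb A, 13.3 and 7.90 in cortex A and 7.40 and 16.6 in brainstem A. In Neg it was at 27.6 and 29.2 in the olfactory bulb and at most 0.0135 in the cortex and brainstem. The Y-linked genes Ddx3y and Uty were present in 3 of the 6 A libraries, at up to 1.38 and 1.11 FPKM. They were listed at 0 in both olfactory bulb Neg libraries and were present in all 4 other Neg libraries, at 0.650 to 2.45 and 1.01 to 5.08 FPKM. Eif2s3y and Kdm5d, also Y-linked, were present in the same 3 A libraries, at up to 2.32 and 2.82 FPKM. In Neg they reached 1.33 and 2.05 FPKM and were listed at 0 in both olfactory bulb libraries. All 3 of these A libraries also had Xist. Of the olfactory bulb libraries the second of A was the one with Y-linked transcripts, at 0.518 FPKM of Ddx3y and 1.11 of Uty. In the cortex and brainstem the sex of the animals and the population cannot be told apart. In the olfactory bulb the first A library, like both Neg libraries, had Xist and was listed at 0 for Ddx3y and Uty. The part of sex in the gene differences was not tested.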

How the data were processed

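RNA was sequenced from 12 libraries, 6 of A and 6 of Neg. Per the labels, cDNA was made with random and oligo d(T) primers, which does not mark strand, so a gene and an overlapping or antisense neighbour could share fragments. Per the submitters' processing notes, bcl2fastq 1.8.3, TopHat and Cufflinks were used with mm10. The authors deposited FPKM with 95% bounds for 63241 transcripts, and coverage, a signal per transcript, from which relative depth was 1.53 to 2.26 in A and 1.38 to 1.70 in Neg. The deposited bounds around 10 FPKM had median half-widths of 12.6% to 16.0% in A and 13.8% to 16.5% in Neg. These bounds cover counting error only, and fragment totals were not used.

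Of the transcripts, 52543 (83.1%) were assigned by locus to 25460 genes (GENCODE vM21) and summed. Genes reaching 1 FPKM in no fewer than 2 libraries entered the test on log2(FPKM + 1), which understates changes of low genes, with limma 3.58.1 in R 4.3.3 (trend, region as block, 8 residual degrees of freedom; Benjamini-Hochberg adjustment over 10739 genes). Regions used 6 group means and 6 degrees of freedom. 1 gene without an estimate was left out. The fit was tested on simulated data. Protein coding genes were named by rank among calls with the same sign in 3 regions and 5 FPKM, and by up to 4 per list; Gm26917, Mt3, sex-linked genes and Gpm6a were named after their values were seen. The comparison and the gene lists were chosen with earlier results of these data known. Motifs were searched in RefSeq promoters. Globins, ribosomal proteins and other genes with near-identical copies are uncertain. 1 gene that the naming rule selects is not reported here.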

Additional observations from a re-analysis of the deposited data

How the results depend on the processing

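The count of 1434 genes over the 3 regions depended on the settings. It was 206 after quantile normalization, 74 with sums of 1000000, 149 with the median sum, 280 without a filter, 798 with the top transcript per gene, 4739 with array weights, 573 with all 36 libraries, 392 without a region term, 3285 with the 10 libraries (4 of A, 6 of Neg) in the first series of title numbers, 151 without libraries under 5000 genes and 2 in olfactory bulb and cortex alone; the median sum and the omission of the brainstem were chosen after seeing the data. It stayed within 1.5 times with a pseudocount of 0.1 (966), a filter of 6 libraries (1418), group means (2018) and a log2 difference of at least 1 (1388). Leaving out each library gave 529 (without brainstem A replicate 1) to 3668 (without cortex A replicate 2), and 10 of 12 omissions moved it by more than 1.5 times. The quantile count of 206 was 115 with a pseudocount of 0.1, 44 without a filter and 36 to 300 over omissions of the same libraries. The olfactory bulb count of 16 was 0 on each rescaled and quantile scale and with a pseudocount of 0.1, 78 without a filter, 3 with the stricter filter, 26 with the top transcript, 448 with weights and 0 to 15 over omissions. The cortex count of 3 was 0 without a filter and with weights, 1 with the stricter filter and the top transcript, and 0 to 1 over omissions. The brainstem count of 2446 was 156 by quantiles, 350 and 138 rescaled, 1101 without a filter, 966 with the top transcript and 70 to 928 over omissions. The test between regions, 0 as reported, gave 6 and 5 rescaled, 3 with a pseudocount of 0.1, 4 with weights and 0 to 5 over omissions. The causes were not tested.

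The marker differences kept direction and threshold over omissions, at 3.37 to 4.15 for Gpr37l1, 2.61 to 3.02 for Slc1a3 and 2.25 to 2.605 for Aqp4. Reversals among 97 named genes were Tfrc, 0.47 with the top transcript and 0.020 with weights, and Csf1r, -0.12 without libraries under 5000 genes. No call was reversed, but of the 75 named genes called as deposited, 0 kept the call in all 26 settings. No paired analysis was possible because the labels give no replicate numbers. Depth limits what can be said of genes near 1 FPKM.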

Other observations

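Of the genes tested, 1 was called lower in A as deposited, Gpm6a, a membrane glycoprotein. It was listed at 0 in all 6 A libraries and in olfactory bulb Neg replicate 2 and both brainstem Neg libraries, and at 6.36, 11.2 and 4.43 FPKM in the other 3 Neg libraries (adjusted p = 0.0366 in limma). It did not pass after quantile normalization (adjusted p = 0.116), and its call as deposited was lost without 8 of the 12 libraries. Cmc1, a mitochondrial assembly factor, was listed at 0 in every A library and at 12.02 and 4.23 FPKM in cortex Neg. Cox6a2, a cytochrome c oxidase subunit, was at 4.29 and 9.06 FPKM in cortex A and at 0 in the A libraries of the other regions, and at no more than 0.221 FPKM in any Neg library.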
